A study of Gossypium hirsutum with 6 samples.

Results

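In the first true leaf of virescent upland cotton (Gossypium hirsutum), 83 of the 65126 deposited gene identifiers formed a group of abundant transcripts that were 1.5-fold to just under 4-fold more abundant than in green wild-type leaves. Together these 83 genes held 2.23% ± 0.02 of the summed transcript abundance of the virescent libraries and 1.19% ± 0.09 of that of the wild-type libraries (SD, n = 3 each). They were chosen by their values. A gene was taken if its identifier carries a chromosome label of the A or D subgenome, if its mean over the 6 libraries was from 100 to below 1000 FPKM (fragments mapped to a transcript, scaled by its length in kilobases and by each 1000000 fragments of the library), if its mean log2(FPKM + 1) was from 0.585 to below 2 higher in virescent leaves, and if its lowest virescent value lay above its highest wild-type value. A stretch of chromosome D10, the identifier numbers 184 to 383, was left out by the rule. The difference between the genotypes is therefore what chose these genes, and it is given as a description, with no test of the group.

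The virescent libraries came from leaves of genotype MSmsv1v1, of the virescent line Yt30, and the wild-type libraries from leaves of genotype msmsv1v1, with 3 libraries each. Both genotype labels thus carry v1v1 and at least one ms allele, and they differ in the MS symbol. The labels give no plant age beyond the first true leaf and do not say that each library is a separate plant, so the spread between libraries may be technical. No marker of leaf or of any other tissue could be checked, because the table does not pair its identifiers with gene names and 0 of the 65126 identifiers matched the RefSeq table of assembly Gossypium_hirsutum_v2.1. For the same reason 2 identifiers are printed here, that of the gene with the largest difference and that of the most abundant gene, and the others are given by the chromosome label in their identifier.

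Virescence is a delay of greening. Young leaves emerge pale, with little chlorophyll and immature chloroplasts, and usually become greener as they expand, so that a pale and a green leaf of the same position differ in chloroplast development. Upland cotton is an allotetraploid that carries an A and a D subgenome, and many of its genes exist as a pair of homoeologous copies on chromosomes of the same number in the 2 subgenomes. In bulk leaf RNA, more cells of a type and more RNA per cell cannot be told apart.

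FPKM summed to between 1057345 and 1068010 in the virescent libraries and to between 1019041 and 1048966 in the wild-type libraries. The summed FPKM of the 83 genes was 23666 ± 284 in virescent and 12314 ± 956 in wild-type libraries (SD, n = 3 each), a difference of 11352 FPKM. The mean of the whole libraries differed by 27558 FPKM in the same direction. The sequencing depth is unknown, so no counting interval is given.

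The median gene of the group stood at 229, 215 and 197 FPKM in virescent libraries 1 to 3, against 108, 122 and 110 FPKM in wild-type libraries 1 to 3. That each virescent median lay above each wild-type median was fixed by the rule and is no result. The ranges over all genes overlap. The lowest values of the group were 93.8, 116 and 74.3 FPKM in the virescent libraries, against 39.6, 42.4 and 42.5 FPKM in the wild-type libraries. Its highest values were 1227, 967 and 795 FPKM in the virescent libraries, against 645, 706 and 464 FPKM in the wild-type libraries.

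**Figure D1:**
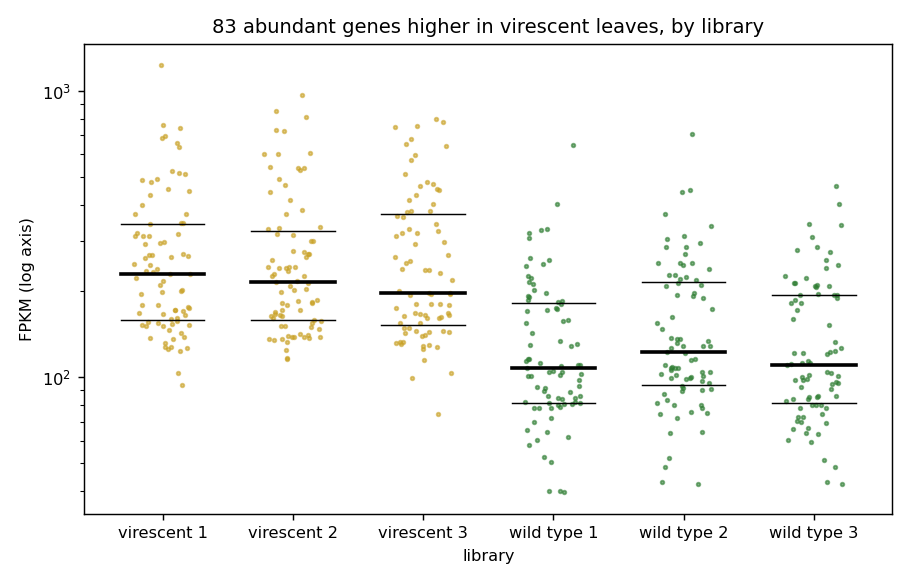
FPKM (log axis) of the 83 genes in each library; each point is 1 gene, the thick bar is the median and the thin bars are the quartiles. The medians of the virescent libraries are 197 to 229 FPKM and those of the wild-type libraries 108 to 122 FPKM.

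By mean abundance the 83 genes ranked from 121 to 1290 among all identifiers. Their means ran from 102 to 781 FPKM, with a median of 154 FPKM. Of the 688 genes with a chromosome label and a mean of 100 to below 200 FPKM, 51 belonged to the group (7.41%). From 200 to below 500 FPKM it took 30 of 367 genes (8.17%), and from 500 to below 1000 FPKM 2 of 94 (2.13%). The group therefore held few of the most abundant genes of its class. The gene nearest below the lower bound of abundance that met the other limits had a mean of 99.9 FPKM, against 101.7 FPKM for the lowest gene inside, and no gene of 1000 FPKM or more met them.

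On the log2(FPKM + 1) scale the differences ran from 0.59 to 1.99, with a median of 0.83 and quartiles of 0.65 and 1.18. The median over the 1149 genes of the same abundance class, all with a chromosome label and outside the D10 stretch, was 0.15, and that over all 43104 tested genes was 0.05. The group was weighted toward small differences. In 56 genes the difference was below 1, in 21 it was from 1 to below 1.5 and in 6 it was 1.5 or more. At the lower bound the nearest gene inside stood at 0.59 and the nearest outside at 0.58, and at the upper bound the nearest inside stood at 1.99 and the nearest outside just above 2.

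The lack of overlap was asked for by the rule, so it describes the group and is no result. In the same abundance class 34.7% of genes were higher in virescent leaves without overlap, and 20.5% of all tested genes were. A further 304 genes of the class were higher without overlap by less than the lower bound, 12 by 2 or more on the log2 scale, and 9 genes fell in the range of differences but overlapped. The gap between the lowest virescent and the highest wild-type value had a median of 0.51 on the log2 scale. It reached 1 or more in 6 genes and stayed under 0.1 in 3 genes, the smallest being 0.0059 in a gene on D02.

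**Figure D2:**
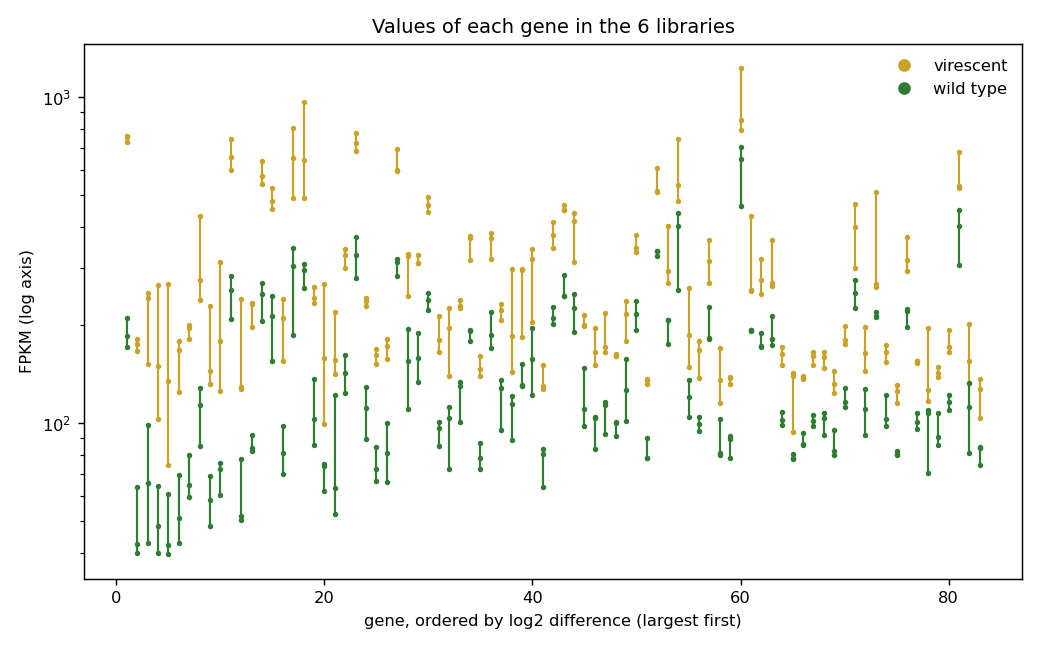
FPKM (log axis) of each of the 83 genes in the 3 virescent and 3 wild-type libraries, ordered by the log2 difference; points are libraries and lines join the lowest and highest library of a genotype. The separation runs from a difference of 1.99 at the left to 0.59 at the right, and the vertical space between the genotypes is small in several genes on the right.

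In the limma fit across all 43104 tested genes, 66 of the 83 genes passed the adjusted threshold of 0.05 as higher, against a background of 6.30% of all tested genes and 11.7% of the abundance class. Since the rule used the same contrast, nothing is read from this count. The 17 genes that did not pass had differences of 0.59 to 1.55 and gaps between the genotypes of 0.0059 to 0.40, with a median gap of 0.19. The median gap of the 66 genes that passed was 0.60. The count changed with the libraries used, to 14 of the 83 genes without wild type 1, 28 without wild type 3 and 43 without virescent 1. It was 48 without virescent 2, 57 without virescent 3 and 63 without wild type 2. Across all 43104 tested genes the number higher changed as well. It went from 2714 to 248 without wild type 1, 572 without wild type 3 and 1004 without virescent 1. It was 1271 without virescent 2 and 1848 without virescent 3, and it rose to 2783 without wild type 2. With the replicate number as a block, 20 of the 83 genes and 473 of all tested genes passed as higher.

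The largest difference of the group was that of Gh_D02G2235, on chromosome label D02. It stood at 759, 729 and 755 FPKM in virescent libraries 1 to 3, against 185, 210 and 171 FPKM in wild-type libraries 1 to 3. The libraries of each genotype lay close together and the genotypes were far apart, with a gap of 1.79 on the log2 scale, the widest of the group. Its log2 difference was 1.99 ± 0.12 (SE), and it was between 1.92 and 2.06 with any 1 library left out.

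The most abundant gene of the group was Gh_D08G2475, on D08. It had 1227, 850 and 795 FPKM in virescent libraries 1 to 3, against 645, 706 and 464 FPKM in wild-type libraries 1 to 3. Virescent 1 stood above the other virescent libraries, and wild type 2 reached close to the lowest virescent library. Its log2 difference of 0.66 ± 0.21 (SE) was among the 17 that did not pass the threshold across all genes, and with 1 library left out it lay between 0.46 and 0.78.

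The second largest difference belonged to a gene on A13, with 175, 181 and 167 FPKM in virescent libraries 1 to 3, against 40.1, 63.8 and 42.5 FPKM in wild-type libraries 1 to 3. As in Gh_D02G2235, the virescent libraries were nearly level. The third was a gene on D05, with 152, 243 and 250 FPKM in virescent libraries 1 to 3, against 65.5, 99.2 and 43.0 FPKM in wild-type libraries 1 to 3. Here both genotypes spread widely and the lowest virescent library was nearer to wild type 2 than to the other virescent libraries.

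The next largest differences came with uneven virescent libraries. The gene on A08 had 265, 150 and 103 FPKM in virescent libraries 1 to 3, against 39.9, 64.2 and 48.5 FPKM in wild-type libraries 1 to 3. A gene on D13 had 267, 135 and 74.3 FPKM in virescent libraries 1 to 3, against 39.6, 42.4 and 60.5 FPKM in wild-type libraries 1 to 3. In both, virescent 1 was highest and virescent 3 lowest, and the gene on D13 had the highest standard error of the group, 0.42 on the log2 scale.

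After Gh_D08G2475, the most abundant genes included one on D01, with 683, 725 and 778 FPKM in virescent libraries 1 to 3, against 329, 372 and 279 FPKM in wild-type libraries 1 to 3. A gene on A05 had 492, 967 and 643 FPKM in virescent libraries 1 to 3, against 261, 295 and 308 FPKM in wild-type libraries 1 to 3. A gene on A01 had 692, 600 and 595 FPKM in virescent libraries 1 to 3, against 319, 312 and 284 FPKM in wild-type libraries 1 to 3. In the genes on D01 and A01 the libraries of a genotype were close, while in the gene on A05 virescent 2 stood well above the others. The genes on D01, A05 and A01 ranked 2, 3 and 7 by mean abundance. Ranks 4 and 5 were genes on D06 and A08, with gaps between the genotypes of 0.22 and 0.12 on the log2 scale. Neither of them passed the threshold across all genes.

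**Figure D3:**
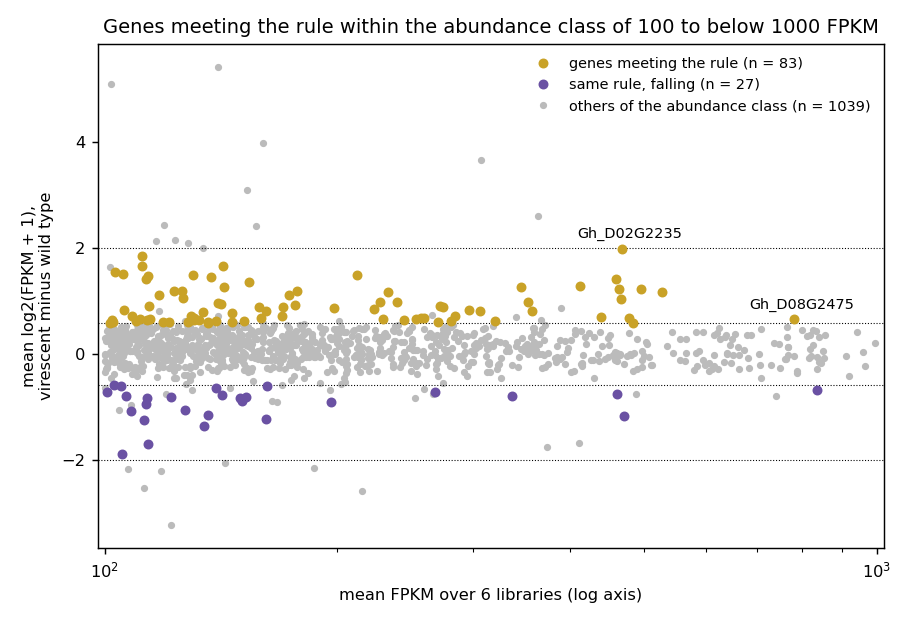
Mean log2(FPKM + 1) difference, virescent minus wild type, against mean FPKM (log axis) for the 1149 genes of the abundance class; the dotted lines are the bounds of the rule in both directions. The 83 genes lie between 0.59 and 1.99, and 27 genes met the same rule with the direction turned round.

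The same rule with the direction turned round found 27 genes that were lower in virescent leaves, with a median log2 difference of -0.82. The group of 83 and this group of 27 differed in how their libraries spread, a property that the rule constrained only through the lack of overlap. The median SD of the log2 values in the 83 genes was 0.17 in virescent and 0.18 in wild-type libraries, against 0.33 and 0.37 in the 27 lower genes. In the whole abundance class it was 0.16 and 0.15. The 83 genes were thus close to their class in spread, without a test of that difference.

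The order of the libraries within a genotype was not set by the rule. Among the wild-type libraries, wild type 2 was the highest in 55 of the 83 genes (66.3%) and the lowest in 6. In the 1066 other genes of the abundance class it was the highest in 41.5%. In the 27 genes lower in virescent leaves it was the lowest wild-type library in 18 (66.7%) and the highest in 1, so that it leaned toward the virescent libraries there too. In the same 27 genes virescent 2 was the highest virescent library in 20 (74.1%) and the lowest in 1, so that it leaned toward the wild-type libraries. The median position of wild type 2 in the 83 genes was 19.8% of the way from the other wild-type libraries toward the virescent mean. Wild type 1 and 3 stood at -12.0% and -6.06%. Leaving out wild type 2 gave 123 genes that met the rule, of which 76 were among the 83.

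The medians of the virescent libraries lay nearer to each other in this measure, and virescent 1, 2 and 3 were displaced toward the wild-type mean by a median of 2.27%, 3.33% and -1.50%. In such a median, deviations up and down cancel. Within single genes the virescent libraries were no closer, and the SD was larger in virescent than in wild-type libraries in 41 of the 83 genes. Virescent 3 was the highest virescent library in 34 genes, virescent 2 in 27 and virescent 1 in 22. The 22 genes with virescent 1 on top were the most uneven, with a median ratio of the highest to the lowest virescent library of 1.46, against 1.19 where virescent 2 was on top and 1.22 where virescent 3 was. Over the whole group this ratio was below 1.2 in 38 genes and 2 or more in 5 genes, the largest being 3.59. Among wild-type libraries it was below 1.2 in 30 genes and 2 or more in 2.

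The 83 genes carried 24 of the 26 chromosome labels, and neither A02 nor A04 had one. The A subgenome held 47 of them, or 8.27% of its 568 genes in the abundance class, and the D subgenome 36, or 6.20% of its 581 genes. The medians of the log2 difference were 0.83 in the A and 0.84 in the D subgenome, and those of mean abundance were 154 and 152 FPKM. The label with the most genes was A05, with 11 of its 61 genes of the class (18.0%), while the D label of the same number had 3 of 58 (5.17%). A13 had 8 of 41 (19.5%), against 4 of 46 on D13 (8.70%). On A11 the count was 1 of 53 (1.89%). These counts are small and were not tested.

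**Figure D4:**
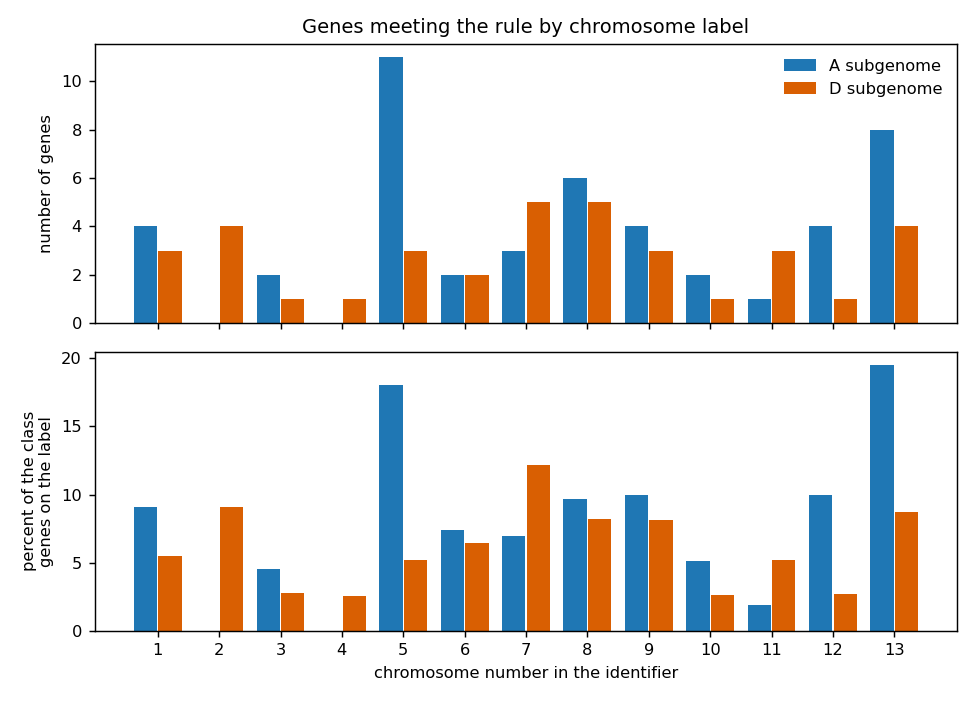
Number of the 83 genes on each chromosome label (top) and the same number as a percent of the abundance class genes on that label (bottom), for the A and D subgenomes. A05 and A13 have the highest counts, 11 and 8, and A02 and A04 have none.

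The genes were scattered along the chromosome labels, as far as identifier numbers follow position, which no source used here states. Of 59 steps between successive genes of the group on a label, 1 was between consecutive numbers, 3 were of 11 to 50 and 55 were larger, with a median step of 444. These steps leave out neighbours above the upper bound. On A08 the gene with a difference of 1.66 was followed directly by genes of the abundance class at 2.43 and 2.43. On D08 the gene at 1.19 was followed directly by genes of the class at 2.13 and 2.16. The consecutive pair within the group was Gh_D02G2235 and the gene with the number below it. That gene, at 104, 136 and 128 FPKM in virescent libraries 1 to 3, against 84.4, 74.3 and 84.0 FPKM in wild-type libraries 1 to 3, had the smallest difference of the group. The gene with the number above Gh_D02G2235, too low in abundance for the group, had 31.4, 27.7 and 26.7 FPKM in virescent libraries 1 to 3, against 11.8, 15.9 and 17.8 FPKM in wild-type libraries 1 to 3. Of these 3 consecutive identifiers, 2 were in the group, so the rule asked for their lack of overlap. The gene above was higher without overlap too, as were 20.5% of all tested genes. In the genes 2 numbers below and 2 numbers above Gh_D02G2235 the genotypes overlapped.

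The neighbours of the most abundant gene were different. The gene with the number below Gh_D08G2475 had 26.7, 23.6 and 26.4 FPKM in virescent libraries 1 to 3, against 20.4, 30.9 and 21.5 FPKM in wild-type libraries 1 to 3, and the genotypes overlapped. Over the whole group, 102 tested genes outside it had an identifier number next to one inside it. Of these, 38 were higher in virescent leaves without overlap (37.3%), against 20.5% of all tested genes, and 5 were lower without overlap (4.90%), against 13.2% of all tested genes. Their median log2 difference was 0.15, and 20 of them (19.6%) reached 0.585, against 8.80% of all tested genes. In the abundance class of the group, 34.7% of genes were higher without overlap and the median log2 difference was 0.15. The neighbours were not matched to other genes by abundance, so nothing is read from these shares.

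Some genes of the group that lay close in position on A and D labels of the same number had like values from library to library. Such pairs were taken up after their values were seen, and both genes of a pair had passed the rule on the same 6 libraries. Each gene's position was taken as its identifier number in percent of the highest number on its label, and 16 pairs of genes, 1 on an A and 1 on the D label of the same number, lay within 5 percentage points of each other. They involved 29 of the 83 genes. For each pair the deviations of the 6 libraries from their genotype means were correlated, a measure that the difference between the genotypes does not enter. Pearson's r had a median of 0.81 over the 16 pairs, with quartiles of 0.32 and 0.90, and in 8 of them (50%) it was 0.8 or more. Over all 149 pairs on A and D labels of the same number, whatever their distance, the median was 0.21, with 15.4% at 0.8 or more, against 0.16 and 9.34% over all 3403 pairs of the group. In the 117 pairs on such labels more than 10 points apart the median was 0.17, with 9.40% at 0.8 or more, and in the 3087 pairs on unlike labels it was 0.15, with 9.36%. In all genes of the abundance class, 11.7% of the 2746 pairs within 5 points and 6.71% of the 21083 pairs more than 10 points apart reached 0.8. The median r of these class pairs was 0.08 within 5 points and 0.03 more than 10 points apart. All pairs share the same 6 libraries, so these values are descriptions with no test. The counting of reads from near-identical copies is not described, copies may share reads, and the part of shared reads in these correlations was not tested.

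Among the pairs within 5 points, the highest correlation was that of a pair on A08 and D08, at r = 0.99. The A08 gene had 312, 179 and 126 FPKM in virescent libraries 1 to 3, against 60.2, 75.5 and 72.7 FPKM in wild-type libraries 1 to 3. The D08 gene of the pair had 268, 159 and 99.3 FPKM in virescent libraries 1 to 3, against 61.9, 75.2 and 74.1 FPKM in wild-type libraries 1 to 3. Both genes thus had the same order of libraries in the virescent genotype, with virescent 1 highest. This order was not particular to the pair, since a gene on D13 had 267, 135 and 74.3 FPKM in virescent libraries 1 to 3.

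The order was another in the pair on A09 and D09, at r = 0.94, where virescent 2 stood out in both genes. The A09 gene had 132, 230 and 145 FPKM in virescent libraries 1 to 3, against 58.0, 48.4 and 69.1 FPKM in wild-type libraries 1 to 3. The D09 gene had 128, 241 and 129 FPKM in virescent libraries 1 to 3, against 50.6, 52.0 and 77.8 FPKM in wild-type libraries 1 to 3. The pairs on A08 and D08 and on A09 and D09 thus deviated in different libraries.

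The most abundant gene, Gh_D08G2475, formed 1 of the 16 pairs, with a gene on A08 at 2.74 points and r = 0.68. Within 10 points it also paired with A08 genes at 7.61 points, with r = 0.99, and at 9.40 points, with r = 0.72. The A08 gene at 7.61 points, described here because its correlation was the highest of the 3, had 744, 538 and 480 FPKM in virescent libraries 1 to 3, against 403, 443 and 257 FPKM in wild-type libraries 1 to 3. Not every close pair moved together. The closest pairs on A06 and D06 and on A07 and D07 had r = -0.02 and 0.07. In this A07 and D07 pair, virescent 1 stood at 511 FPKM in the D07 gene, against 262 and 267 FPKM in virescent 2 and 3, while the A07 gene had 222, 208 and 232 FPKM in virescent 1 to 3. The same A07 gene lay 0.79 points from another D07 gene, with r = 0.796. Which D07 gene, if either, is its copy is not known.

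**Figure D5:**
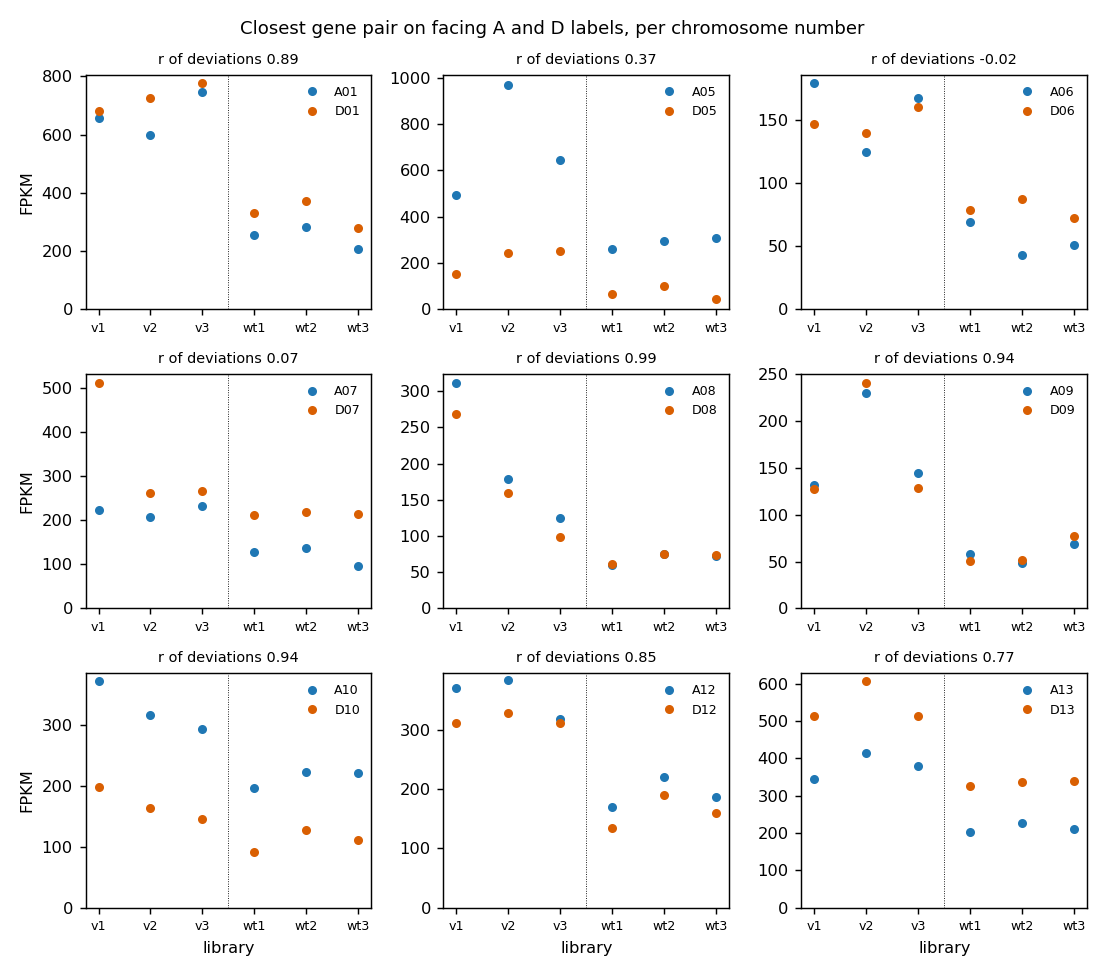
FPKM of the closest pair of genes on the A and D labels of each chromosome number, for the 9 numbers with a pair within 5 percentage points; v1 to v3 are the virescent and wt1 to wt3 the wild-type libraries. Above each panel stands the correlation of the deviations from the genotype means, from -0.02 on A06 and D06 to 0.99 on A08 and D08.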

How the data were processed

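The authors deposited 1 table of FPKM values, per the file headers, with 65126 identifiers, 1 column per library and values rounded to 2 decimals. No aligner, counting tool or annotation is given in the sources used here, and the submitters' processing notes name only mm10, a mouse build. FPKM is relative to each library's mapped fragments, so every value also moves with the share of the most abundant transcripts. Groups follow the genotype labels.

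The rule was applied to log2(FPKM + 1) values. The 43104 genes that reached an FPKM of 1 in 3 or more libraries were fitted with limma 3.58.1 in R 4.3.3, with genotype as the only term, a mean-variance trend and Benjamini-Hochberg adjustment over all of them, at a threshold of 0.05. The fit was also run on simulated data, drawn independently for each library and without a displaced library, and nothing is read from that run. The group, the comparisons and the alternatives were chosen with earlier results of these data known, and the pairs on A and D labels of the same number after their values were seen. By the rule set for identifiers without names, the gene with the largest difference and the gene with the highest mean are named.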

Additional observations from a re-analysis of the deposited data

How the results depend on the processing

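The number of genes that met the rule was 83 at a pseudocount of 0.1, 71 with all libraries rescaled to equal sums (70 of the 83 kept), 62 with median-ratio scaling (61 kept) and 77 to 123 with 1 library left out. It moved by construction to 27 at a lower bound of 1, 312 at 0.3 and 238 at 50 FPKM. The median log2 difference of the 83 genes stayed between 0.76 and 0.89 in the 10 alternatives run. Their share of the summed FPKM was 2.52% in virescent and 1.39% in wild-type libraries when the 10 most abundant genes of each library were left out of the sum, and 2.21% to 2.24% and 1.14% to 1.22% with 1 library left out. Genes past the threshold across the table numbered 2714 higher and 1745 lower, against 2147 and 2070 with median-ratio scaling, 1442 and 812 without a filter, and 1720 and 2066 without the number-2 libraries of either genotype. With 1 library left out they numbered 248 to 2783 higher and 130 to 2133 lower, and 14 to 63 of the 83 genes passed. In a fit with a replicate block 473 genes were higher and 192 lower, and 20 of the 83 passed. The cause of these changes was not tested. Libraries of the same number had deviations that correlated at 0.08, -0.28 and -0.24, and those of unlike number at -0.06 to 0.33. Libraries of the same number are therefore taken to share only a number, and any other pairing of the libraries was not tested. The median correlation of close A and D pairs was 0.82 within 2 and 0.69 within 10 percentage points, bounds chosen after seeing the data. Gh_D02G2235 passed the threshold and Gh_D08G2475 missed it in each of the 14 alternatives run. Limits by depth cannot be given.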

Other observations

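Of the identifiers that the rule left out by their label, 2 of 20 on scaffolds and 2 of 45 with the prefix BGI_novel in the same range of abundance met its other limits, and 0 of 5 in the D10 stretch did. The most abundant of these, on a scaffold, had 319, 290 and 552 FPKM in virescent libraries 1 to 3, against 165, 167 and 114 FPKM in wild-type libraries 1 to 3. A BGI_novel transcript had 121, 178 and 175 FPKM in virescent libraries 1 to 3, against 43.7, 87.4 and 46.2 FPKM in wild-type libraries 1 to 3. In the scaffold transcript, virescent 3 was highest, and in the BGI_novel transcript wild type 2 was, within its genotype, far above the others.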
